A study of Mus musculus with 2 samples.

Results

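Ccl3, Ccl4, Ccl5, Xcl1, Ccl17 and Ccl22, 6 chemokine genes whose products attract lymphocytes, were examined in the immune cells of mouse melanomas. They were taken by name from the 17232 genes of the deposited single-cell table, and all 6 were present. The cells came from subcutaneous B16-OVA tumors, a mouse melanoma line that carries ovalbumin as an antigen, 14 days after tumor challenge. Hosts were Maoa WT mice and Maoa KO mice. The latter carry a hypomorphic allele of the monoamine oxidase A gene (129S-Maoa tm1Shih/J) in every cell, backcrossed to C57BL/6J for more than 9 generations, so the change is not limited to one cell type. The study used 8- to 12-week-old female mice unless it stated otherwise, and neither group received a drug. For each genotype, 10 tumors were combined, live CD45.2+ cells were sorted, and 10000 cells were loaded for 1 Chromium 3′ library. With 1 library per genotype the spread between tumors could not be measured, so no test between genotypes was possible, and every interval here covers counting error only.

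Chemokines are small secreted proteins that guide the movement of leukocytes through G protein-coupled receptors. Ccl3, Ccl4 and Ccl5 are inflammatory CC chemokines made by activated T cells, NK cells and myeloid cells. Ccl3 and Ccl5 bind Ccr1. Ccl17 and Ccl22 share the receptor Ccr4, which is found on regulatory and helper T cells, and Ccl22 in particular is a product of mature dendritic cells (DCs). Xcl1 is made by NK cells and CD8 T cells and binds Xcr1, the receptor that marks cross-presenting conventional type 1 DCs (cDC1).

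The 6 genes lie in 3 places of the mouse genome (GRCm38, GENCODE M21), and each has 3 exons in the basic annotation. Ccl5 (chromosome 11, 83525778 to 83530518, minus strand), Ccl3 (chromosome 11, 83647844 to 83649355, minus strand) and Ccl4 (chromosome 11, 83662584 to 83664683, plus strand) belong to 1 chemokine cluster, in which Ccl3 and Ccl4 are 13.2 kb apart with no protein-coding gene between them. Ccl22 (chromosome 8, 94745590 to 94751699, plus strand) and Ccl17 (chromosome 8, 94810453 to 94812036, plus strand) are 58.8 kb apart, with Cx3cl1 between them. Xcl1 (chromosome 1, 164931644 to 164935527, minus strand) overlaps Gm20743, a noncoding gene on the opposite strand. No annotated gene overlaps the other 5.

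Promoter sequences of 4 of the 6 genes were found in the RefSeq promoter table (GRCm38.p6), and Ccl4 and Ccl5 had no entry. They are shown because these genes were measured in different classes of cells. Each run gives the 250 bases before the RefSeq start site, 5′ to 3′ on the strand of the gene. Capitals mark every match, on either strand, to 6 motifs: the NF-kB kB motif, AP-1 (TGANTCA), RUNX (TGTGGT), the interferon-stimulated response element (GAAANNGAAA), the TATA box (TATAA) and the NFAT core (GGAAA).
Ccl3, chr11:83649379-83649628, minus strand: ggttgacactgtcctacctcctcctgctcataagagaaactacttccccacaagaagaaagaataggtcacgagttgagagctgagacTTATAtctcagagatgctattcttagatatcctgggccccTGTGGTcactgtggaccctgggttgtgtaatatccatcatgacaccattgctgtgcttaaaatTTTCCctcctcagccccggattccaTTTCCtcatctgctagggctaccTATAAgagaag
Xcl1, chr1:164935523-164935772, minus strand: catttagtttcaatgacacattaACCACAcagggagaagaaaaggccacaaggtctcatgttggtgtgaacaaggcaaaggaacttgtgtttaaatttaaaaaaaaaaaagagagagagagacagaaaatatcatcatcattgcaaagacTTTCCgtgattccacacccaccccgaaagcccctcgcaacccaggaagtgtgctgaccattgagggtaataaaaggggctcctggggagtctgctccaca
Ccl17, chr8:94810203-94810452, plus strand: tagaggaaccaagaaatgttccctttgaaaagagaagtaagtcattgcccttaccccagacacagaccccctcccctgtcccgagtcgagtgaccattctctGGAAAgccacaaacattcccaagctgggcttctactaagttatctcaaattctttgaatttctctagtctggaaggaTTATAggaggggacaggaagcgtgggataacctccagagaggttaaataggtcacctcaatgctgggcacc
Ccl22, chr8:94745434-94745683, plus strand: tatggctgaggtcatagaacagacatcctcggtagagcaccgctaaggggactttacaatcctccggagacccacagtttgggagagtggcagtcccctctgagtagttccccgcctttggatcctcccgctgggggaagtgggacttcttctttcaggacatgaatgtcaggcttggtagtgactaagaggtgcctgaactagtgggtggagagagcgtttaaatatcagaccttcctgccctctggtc
Ccl3 held 1 RUNX match, 2 TATA box matches and 2 NFAT core matches. Xcl1 held 1 RUNX match and 1 NFAT core match, and Ccl17 held 1 TATA box match and 1 NFAT core match. In Ccl22 none of the 6 motifs was present in this window. Among all 32851 promoter windows of the same length, 14.05% held the RUNX letters, 22.78% the TATA box letters and 55.57% the NFAT core letters. The kB motif, AP-1 and the interferon element were held by 3.90%, 6.75% and 2.98% of windows and by none of these 4. A match to letters is a description and does not show that a factor binds there.

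The table held 2392 cells and 28801253 UMIs (unique molecular identifiers, counts of single RNA molecules) in the library labelled WT, and 2630 cells and 23702018 UMIs in the library labelled KO. The cells were also deeper in the first library (median 9887.5 against 6945.5 UMIs), and 13 cell barcodes occurred in both. Maoa itself gave 7 UMIs in the library labelled WT and 15 in the library labelled KO (log2 ratio of CPM 1.33, counting interval -0.00095 to 2.92). These few UMIs did not bear out the labels, and the position of the hypomorphic change relative to the 3′ ends counted here is not given in the sources used, so they may not bear on the genotype. The groups are called by label throughout. Cells that carried UMIs of both T cell and myeloid genes, called double positive, were 479 of the 2392 and 283 of the 2630 cells, with a median of 17159 UMIs against 7402.5 in the other cells. They were kept in the main values. Leaving them out turned the sign of 5 of the 19 class ratios given here and moved another 8 beyond their counting intervals. A sign was counted as turned only where the counting interval of the main value did not include 0. Clustering was done without chemokine and chemokine receptor genes, so that the members did not define the clusters. Marker genes gave 4 large classes: T cells (1041 and 1113 cells in the libraries labelled WT and KO), NK cells (187 and 268), DCs (140 and 324) and tumor-associated macrophages with monocytes, TAM/Mono (969 and 832). Small pDC-like and B cell-like clusters held 116 and 32 cells. An absolute log2 ratio between the libraries of 1 or more (called the fold from here on) was seen for 2.72% of genes in T cells, 1.76% in NK cells, 2.05% in DCs and 2.39% in TAM/Mono, counted over genes that reached 100 UMIs in the class.

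Each member had its own distribution over the classes, shown in the bar plots by class. The level of Ccl5 was highest in NK cells, at 6827 CPM in the library labelled WT (UMIs of the gene per 1000000 UMIs of the class, 95% Poisson interval 6677 to 6979) against 7242 in the library labelled KO (7093 to 7394). T cells followed at 3059 and 5484 CPM, then DCs at 1111 and 1090 and TAM/Mono at 318 and 302. Neighbours in this order did not overlap in their counting intervals in either library. Xcl1 was also highest in NK cells (1565 and 1937 CPM), was lower in T cells (233 and 303 CPM), and stood at 11.5 and 12.7 CPM in TAM/Mono. Ccl3 was highest in T cells (830 and 869 CPM), with TAM/Mono at 411 and 317 CPM and NK cells at 346 and 424 CPM, so that the order of these last classes differed between the libraries. Ccl4 stood at 849 and 904 CPM in T cells and at 781 and 405 CPM in TAM/Mono. Ccl17 and Ccl22 were DC genes: DCs were 5.85% and 12.3% of cells and held 77.0% and 97.5% of all Ccl17 UMIs and 91.8% and 96.5% of all Ccl22 UMIs.

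**Figure D1:**
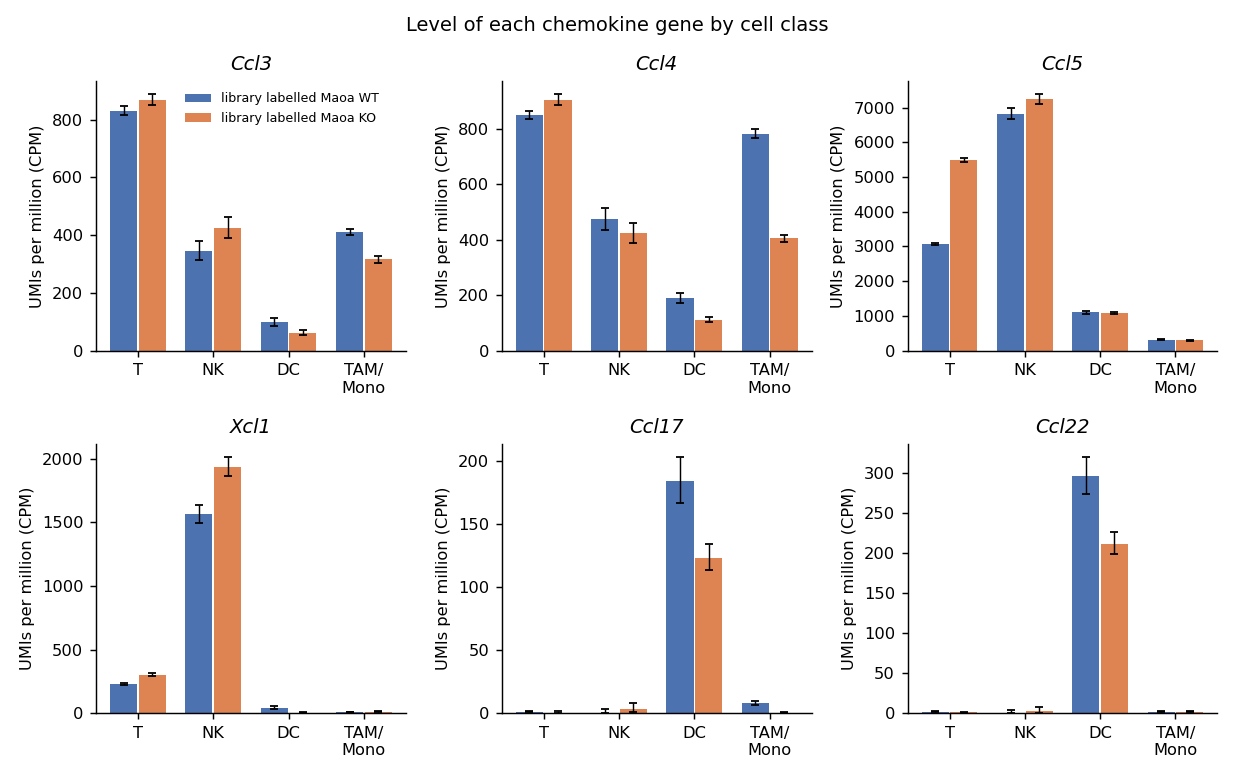
Level of each chemokine gene (y axis, CPM) in T cells, NK cells, DCs and TAM/Mono, with 1 bar per library and error bars for the 95% Poisson interval, which covers counting error only. The Ccl5 bars of T cells differ between the libraries (3059 and 5484 CPM), as do the Ccl4 bars of TAM/Mono (781 and 405 CPM), while Ccl17 and Ccl22 rise above a few CPM mainly in DCs.

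Of the members with at least 100 UMIs in a class, 0 of 4 in T cells and 0 of 4 in NK cells passed an absolute log2 ratio of 1, against 2.72% and 1.76% of all genes. In DCs 1 of 6 passed it (Xcl1, lower in the library labelled KO), and in TAM/Mono 1 of 5 (Ccl17, lower), against 2.05% and 2.39% of all genes. Both depended on few cells. Of 98 Xcl1 UMIs in DCs of the library labelled WT, 83 were in 1 double positive cell, and without the double positive cells the log2 ratio was 0.69 (-0.57 to 2.36) in place of -2.68. In TAM/Mono of the library labelled WT, 1 of 969 cells held 52 of 99 Ccl17 UMIs, and 10 cells held 87.9%. The ratio of Ccl17 there (-4.06) was -4.24 without the 1% of cells with the most UMIs. The library labelled KO held too few Ccl17 UMIs for this value to show whether the ratio holds without those cells. The ratio also depended on how cells were put into classes, at 0.11 with 20 PCs, -0.55 with another seed of the clustering and 0.84 with classes from gates. The ratios that kept their direction under each of the alternatives tried were those of Ccl5 in T cells, Ccl3 in TAM/Mono, Ccl4 in TAM/Mono and DCs (-1.18 to -0.45 in DCs), and Xcl1 in NK cells. The plot of ratios with the alternatives shows this for all 19 combinations of gene and class.

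**Figure D2:**
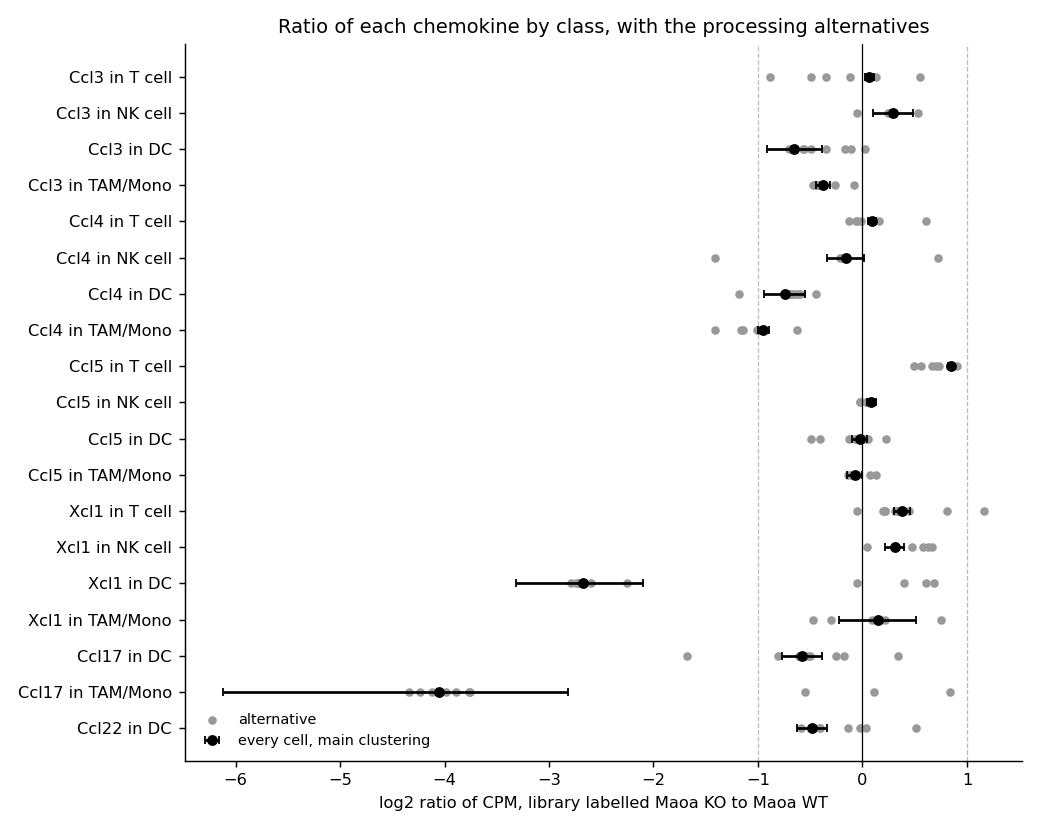
Log2 ratio of CPM, library labelled KO to library labelled WT (x axis), for each chemokine and class with at least 100 UMIs. Black points with bars give the main value and its counting interval, grey points the values under the processing alternatives, and dashed lines an absolute log2 ratio of 1. The points for Ccl5 in T cells all lie above 0 (0.49 to 0.91) and those for Ccl4 in TAM/Mono all lie below it (-1.41 to -0.63), while Ccl3 and Ccl4 in T cells fall on both sides.

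Ccl5 in T cells was 1.79-fold higher in the library labelled KO (3059 to 5484 CPM, log2 ratio 0.84, counting interval 0.82 to 0.86). The share of T cells with a Ccl5 UMI was 90.4% and 89.1%, and 81.9% and 84.2% after each cell was thinned to 3500 UMIs (180 shallower cells of the library labelled KO left out). The median number of Ccl5 UMIs per T cell was 19 and 18, and the median of the levels of single T cells was 1606 and 2750 CPM. The libraries differed in the make-up of the T cell class: clusters 2 and 6 held 58.7% of T cells in the library labelled WT and 25.4% in the library labelled KO, and clusters 1 and 7 held 26.3% and 59.3%. At 1 fixed mix of clusters the log2 ratio was 0.73, and without the double positive cells it was 0.56.

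Within clusters, the log2 ratio of Ccl5 passed 1 in 2 of the 5 T cell clusters. In cluster 2, CD8-like cells led by Adgrg1, Cxcr6, Prf1 and the checkpoint receptor Lag3, Ccl5 stood at 4390 CPM in the 350 cells labelled WT and 11122 CPM in the 175 cells labelled KO (log2 ratio 1.34, 1.31 to 1.37). In cluster 1, naive-like cells led by Lef1, Tcf7 and S1pr1, it stood at 1471 and 3208 CPM (log2 ratio 1.12, 1.04 to 1.21), and 72.5% and 82.4% of the cells held a UMI. Both ratios stayed above 1 without the double positive cells, without the 1% of cells with the most UMIs, and with every cell counted alike. In the cycling CD8-like cluster 6 the levels were 1649 and 2267 CPM (log2 ratio 0.46) and in the Treg-like cluster 9, led by Foxp3, 1795 and 2529 CPM (0.49). Cluster 7, CD8-like cells led by Klra7 and Acp5, had the highest Ccl5 level of all clusters in the library labelled WT, with Ccl5 among its 10 leading genes, and stood at 8990 and 8954 CPM (log2 ratio -0.01, -0.05 to 0.04). NK cells had a log2 ratio of 0.09 (0.04 to 0.13) that fell to -0.02 when every cell counted alike. Whether the ratios differ between clusters was not tested.

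**Figure D3:**
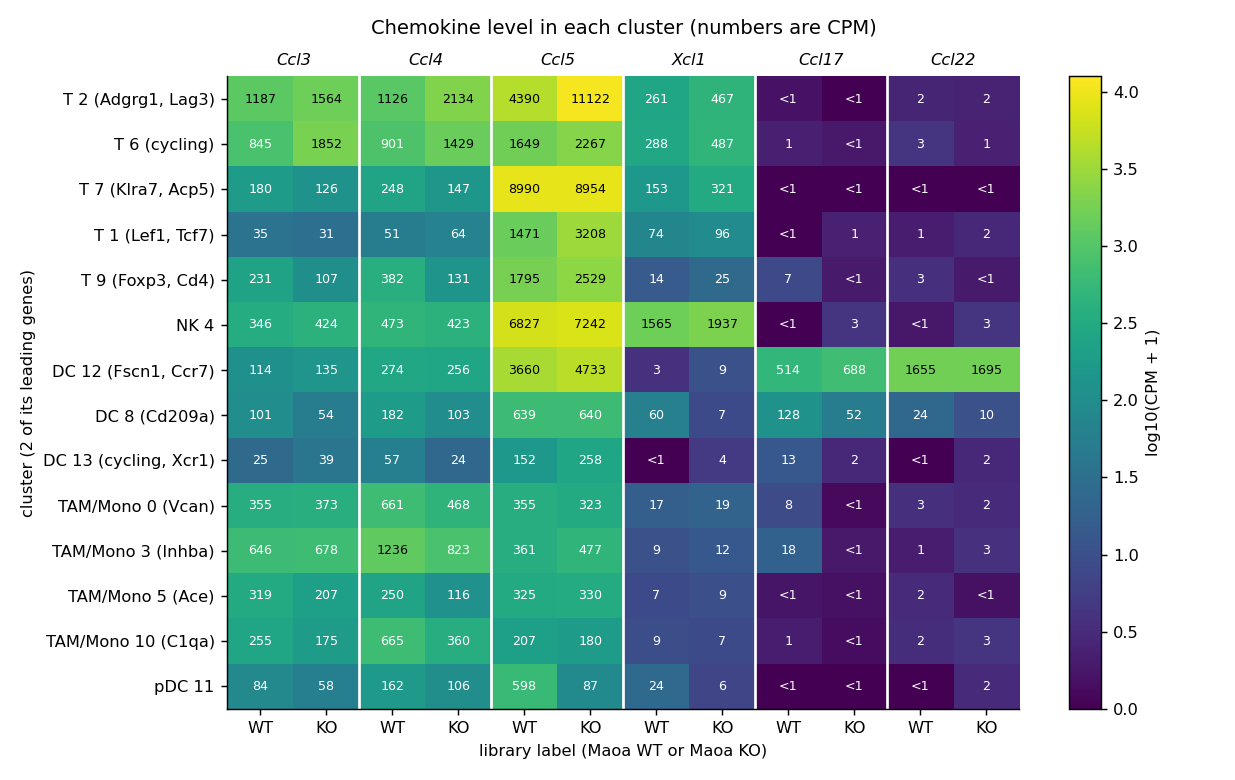
Level of each chemokine in 14 clusters (rows, with leading genes in brackets) of the libraries labelled WT and KO (columns), with the CPM written in each field and the color giving log10(CPM + 1). The B cell-like cluster of 32 cells is not drawn. The Ccl5 fields of cluster 2 are 4390 and 11122 CPM, Xcl1 is highest in NK cluster 4, and Ccl22 is above 1600 CPM only in DC cluster 12.

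Ccl3 and Ccl4 in T cells came chiefly from clusters 2 and 6. In the library labelled WT these 2 clusters held 35.2% and 28.6% of all Ccl3 UMIs of the library, from 14.6% and 10.9% of its cells, and in the library labelled KO 27.1% and 36.3%, from 6.65% and 4.11% of its cells. Ccl3 in cluster 2 stood at 1187 CPM in the library labelled WT and 1564 in the library labelled KO (log2 ratio 0.40, 0.33 to 0.46), with UMIs in 80.6% and 80.0% of cells. Ccl4 there stood at 1126 and 2134 CPM (0.92, 0.86 to 0.98), in 81.7% and 79.4% of cells, and without the double positive cells the ratios were 0.64 and 1.38. In cluster 6 Ccl3 stood at 845 and 1852 CPM and Ccl4 at 901 and 1429 CPM. These last rested on the double positive cells, which were 55.2% and 55.6% of cluster 6: without them the log2 ratio of Ccl3 went from 1.13 to 0.11 and that of Ccl4 from 0.67 to -0.23. In the Treg-like cluster 9 the ratios pointed down, from 231 to 107 CPM for Ccl3 and from 382 to 131 CPM for Ccl4 (log2 ratios -1.10 and -1.54). Without the double positive cells these ratios were -1.93 and -3.40, without the 1% of cells with the most UMIs they were -1.36 and -2.43, and 4 of the 156 cells labelled WT held 50% of the UMIs of each gene there. In the naive-like cluster 1 neither gene passed 65 CPM in either library.

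Over the T cell class as a whole the log2 ratio was 0.07 (0.02 to 0.11) for Ccl3 and 0.09 (0.05 to 0.13) for Ccl4, and neither direction was stable. At 1 fixed mix of clusters the ratios were 0.55 and 0.61, and without the double positive cells they were -0.49 and -0.01. The share of T cells with a UMI was lower in the library labelled KO for both, 54.8% and 31.4% for Ccl3 and 625 of 1041 and 376 of 1113 cells for Ccl4. Thinned to 3500 UMIs per cell, the shares were 36.7% and 25.9% for Ccl3 and 38.7% and 27.8% for Ccl4. In smaller clusters, 5 of the 25 B cell-like cells of the library labelled KO held a Ccl3 UMI at a median depth of 3223 UMIs, and 29.2% and 23.5% of pDC-like cells at 7321.5 and 6945.5 UMIs.

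The UMIs of Ccl3, Ccl4 and Xcl1 were held by few cells. In T cells 50% of all Ccl3 UMIs were in 17 of 1041 cells of the library labelled WT and in 13 of 1113 cells of the library labelled KO, and the highest single cells held 1117 and 768 UMIs. For Ccl4 the numbers of cells were 22 and 15, with 1079 and 484 UMIs in the highest cells. The median T cell held 1 and 0 UMIs of either gene. Ccl5 was spread far more widely, with 50% of UMIs in 130 and 99 T cells, and in 33 of 187 and 46 of 268 NK cells. Xcl1 in NK cells was between these, with 50% of UMIs in 6 and 18 cells. Leaving out the 1% of T cells with the most UMIs turned the log2 ratio of Ccl3 to -0.12 and that of Ccl4 to -0.06, and left that of Ccl5 at 0.70.

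**Figure D4:**
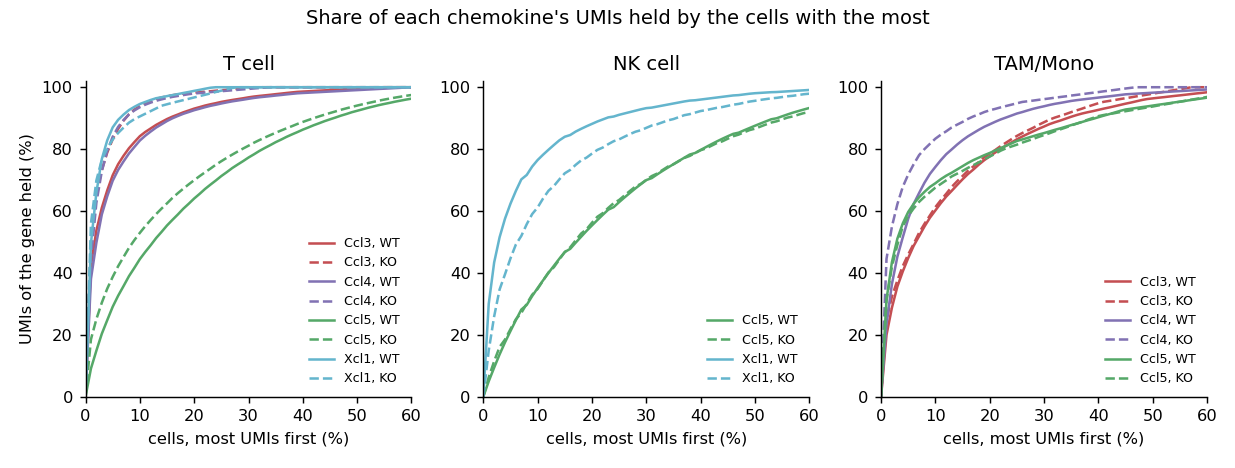
Share of the UMIs of each chemokine (y axis, %) held by the given share of cells (x axis, %, cells with the most UMIs first), for T cells, NK cells and TAM/Mono of the libraries labelled WT (solid) and KO (dashed). The Ccl3, Ccl4 and Xcl1 curves of T cells rise steeply, since 0.898% to 2.11% of cells held 50% of the UMIs, and the Ccl5 curves rise slowly, with 12.5% and 8.89% of T cells at the same mark.

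In TAM/Mono, Ccl4 was lower in the library labelled KO. It stood at 781 CPM in the library labelled WT (765 to 797) against 405 CPM in the library labelled KO (392 to 418), a 1.93-fold difference (log2 ratio -0.95, -1.003 to -0.89). The share of cells with a UMI was 67.1% and 46.9%, and 53.1% and 38.3% when thinned to 5700 UMIs. Each of the 4 clusters pointed the same way: the log2 ratio was -0.50 in cluster 0, led by Vcan and Dmkn (661 to 468 CPM), -0.59 in cluster 3, led by Inhba and Cxcl3 (1236 to 823 CPM), -1.11 in the monocyte-like cluster 5, led by Ace and Treml4 (250 to 116 CPM), and -0.88 in cluster 10, led by Gas6, Ccl8 and C1qa (665 to 360 CPM). Leaving out the 1% of cells with the most UMIs gave -1.12 in cluster 0 and -1.40 in cluster 3, where 2 of the 132 cells labelled KO held 50% of the UMIs, and leaving out the double positive cells gave -0.97 in cluster 0. The make-up of the class also differed, since cluster 3, where Ccl4 was highest, held 36.2% of the class in the library labelled WT and 15.9% in the library labelled KO. At 1 fixed mix of clusters the log2 ratio was -0.63, and without the 1% of cells with the most UMIs it was -1.41.

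Ccl3 in TAM/Mono stood at 411 CPM in the library labelled WT (400 to 423) against 317 CPM in the library labelled KO (305 to 329), a smaller difference (log2 ratio -0.38, -0.44 to -0.31). Unlike Ccl4, its value was close to 0 within clusters 0 and 3, where it stood at 355 and 373 CPM and at 646 and 678 CPM (log2 ratio 0.07 in both), and its direction there changed without the 1% of cells with the most UMIs (-0.10 and -0.26). It was lower in cluster 5 (319 to 207 CPM) and in cluster 10 (255 to 175 CPM), and at 1 fixed mix of clusters the log2 ratio of the class was -0.08. The counting intervals of these 2 genes did not overlap inside clusters 0 and 3, at -0.04 to 0.18 for Ccl3 and -0.59 to -0.41 for Ccl4 in cluster 0, and at -0.05 to 0.19 and -0.69 to -0.48 in cluster 3. Ccl5 in TAM/Mono, at 318 and 302 CPM, had a log2 ratio of -0.08 that turned to 0.07 at 1 fixed mix of clusters.

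The T cell and NK cell genes in other classes are given beside the low levels of Ccl5. Per UMI of 7 T and NK cell genes (Cd3d, Cd3e, Cd3g, Nkg7, Gzma, Cd8a and Ncr1), T cells held 0.52 and 1.02 Ccl5 UMIs and NK cells 0.85 and 1.15. TAM/Mono, where those 7 genes together made up 349 and 230 CPM, held 0.91 and 1.31, values near those of NK cells in the same library. All 14 measured T cell markers gave UMIs in TAM/Mono of both libraries, and 15.0% and 8.05% of TAM/Mono cells were positive for T cell and myeloid genes. Their part in the Ccl5 of TAM/Mono was not tested beyond leaving those cells out, which left 221 and 205 CPM. Mature DC-like cells held 4.80 and 6.42 Ccl5 UMIs per UMI of the same 7 genes, above every lymphocyte class, and 15.1 and 10.4 without the double positive cells.

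Xcl1 was measured chiefly in NK cells and CD8-like T cells. In NK cells it stood at 1565 CPM in the library labelled WT (1494 to 1639) against 1937 CPM in the library labelled KO (1860 to 2016; log2 ratio 0.31, 0.22 to 0.40), in 69.0% and 76.5% of cells. The share was 58.3% and 72% when thinned to 3200 UMIs, and the median cell held 1 and 3 UMIs. A single cell of the library labelled WT held 390 of its 1807 NK cell UMIs, and without the 1% of cells with the most UMIs the log2 ratio was 0.58. With NK cells taken by gates on Ncr1, Klrb1c and Klre1 (70 and 121 cells) it was 0.04. In T cells the level was 233 and 303 CPM (log2 ratio 0.38, 0.31 to 0.46), which turned to -0.05 without the double positive cells. Clusters 1, 2 and 7 kept their direction under 3 alternatives. Cluster 7 went from 153 to 321 CPM (log2 ratio 1.06, 0.76 to 1.39, and 0.95 to 1.10 under the alternatives), with UMIs in 35.5% and 46.7% of cells. In cluster 2 the levels were 261 and 467 CPM (log2 ratio 0.84, and 0.64 to 1.62 under the alternatives). These levels depended on few cells, and the median cell held 0 Xcl1 UMIs in both libraries. At least 100 Xcl1 UMIs were held by 4 of 350 cells labelled WT and 3 of 175 cells labelled KO. The highest single cells held 318 of 1274 and 210 of 889 UMIs. In cluster 6 they were 288 and 487 CPM, with a log2 ratio of 0.76 that turned to -2.05 without the double positive cells.

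Its receptor Xcr1 was measured chiefly in cDC1-like cells, where all 9 cDC1 markers were detected. The cells of the DC class were clustered again for this, after the data had been seen, and gave 7 subclusters. One of them, subcluster 5 (17 of 140 and 34 of 324 cells), was led by Foxp3, Gzmb, Cd4 and other T cell genes, held all 14 T cell markers and was 80.4% double positive, and its cells are part of the main values of the DC class. In subcluster 1 (18 and 59 cells) Xcr1 stood at 229 CPM in 83.3% of cells of the library labelled WT and at 151 CPM in 79.7% of cells of the library labelled KO (log2 ratio -0.61, -1.02 to -0.18). Xcr1 is among the leading genes of this subcluster and is given as a description. NK cells, where Xcl1 was highest, gave no Xcr1 UMI in either library, which allows up to 2.60 and 2.43 CPM (the level that 3 UMIs would give). The cDC1-like cells themselves were 18 of 140 DCs in the library labelled WT and 59 of 324 in the library labelled KO.

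Ccl22 was concentrated in mature DC-like cells, while Ccl17 was found in these and in other DCs. Cluster 12, in which all 11 mature DC markers were detected and which was led by Fscn1, Cacnb3, Il4i1 and the lymph node homing receptor Ccr7, held 86.3% and 93.0% of all Ccl22 UMIs of the libraries in 1.13% and 1.71% of their cells. Ccl22 there stood at 1655 CPM (27 cells labelled WT, UMIs in 66.7%) and 1695 CPM (45 cells labelled KO, UMIs in 77.8%), with a log2 ratio of 0.03 (-0.12 to 0.19) that was 0.44 without the double positive cells. Ccl17 stood at 514 CPM in 13 of 27 cells and at 688 CPM in 9 of 45 cells (log2 ratio 0.42, 0.16 to 0.68). These Ccl17 levels depended on few cells. In the library labelled KO, 2 of the 9 positive cells held at least 100 Ccl17 UMIs each, and the highest held 164 of 373. In the library labelled WT the highest cell held 72 of 184. Without the 1% of cells with the most UMIs the log2 ratio was 0.26. Cluster 12 held 184 and 373 Ccl17 UMIs in the libraries labelled WT and KO. DC cluster 8, led by Cd209a and with 0 of 11 mature DC markers detected, held 206 and 180. The log2 ratio of Ccl17 in cluster 8 was -1.29, and -2.03 to -0.61 under 3 alternatives. Outside DCs both genes were low, with Ccl22 at 0.866 to 3.24 CPM in T cells, NK cells and TAM/Mono. Ccl17 stood at 1.37 and 0.716 CPM in T cells and at 8.29 and 0.445 CPM in TAM/Mono, and it gave no UMI in 187 NK cells of the library labelled WT, which allows up to 2.60 CPM (3 UMIs of the class total), and 4 UMIs in the library labelled KO.

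Over the whole DC class both genes were lower in the library labelled KO, Ccl17 at 184 and 123 CPM (log2 ratio -0.58, -0.77 to -0.39) and Ccl22 at 296 and 212 CPM (-0.48, -0.63 to -0.34). The class held 19.3% mature DC-like cells in the library labelled WT and 13.9% in the library labelled KO. At 1 fixed mix of clusters the ratio of Ccl22 was -0.02 and that of Ccl17 -0.25. Without double positive cells they were 0.03 and -0.17, and with DCs taken by gates (28 and 94 cells) they were 0.51 and 0.34. Without the 1% of cells with the most UMIs the ratio of Ccl17 was -1.68. Both genes were also found in subclusters with at most 1 of the 11 mature DC markers. In subcluster 3, led by Ifit3 and other interferon-induced genes, Ccl17 stood at 216 CPM in the 39 cells labelled WT and 6.20 CPM in the 23 cells labelled KO, and Ccl22 at 92.5 and 21.7 CPM. In subcluster 4, led by Lpl and C1qb and with 13 TAM markers detected, the order of Ccl17 was the opposite, with 16.6 CPM in 11 cells and 262 CPM in 44 cells, where the UMIs lay in 9.09% and 29.5% of cells. Since the highest cells held 44 and 54 Ccl17 UMIs, each of these values depends on few cells.

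**Figure D5:**
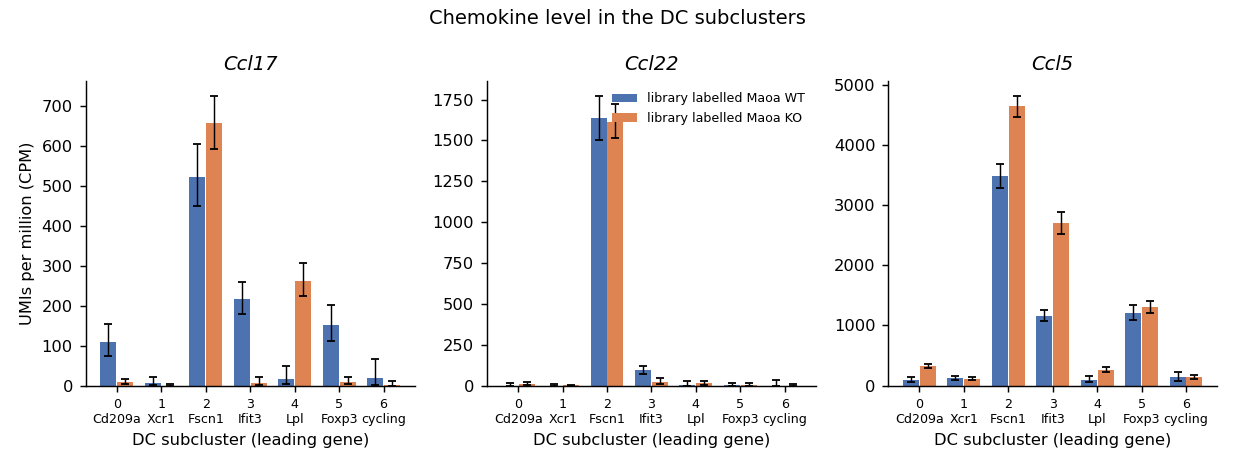
Level of Ccl17, Ccl22 and Ccl5 (y axis, CPM) in the 7 subclusters of the DC class (x axis, number and a leading gene), with 1 bar per library and error bars for the 95% Poisson interval. Ccl22 stands out in subcluster 2, the mature DC-like cells (1635 and 1615 CPM), Ccl17 is also seen in subclusters 3 and 4, in a different library each, and Ccl5 is highest in subcluster 2 (3480 and 4642 CPM).

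Ccl5 was the third chemokine of the mature DC-like cells. In cluster 12 it stood at 3660 and 4733 CPM (log2 ratio 0.37, 0.27 to 0.47), in 88.9% and 97.8% of cells. The value was 0.24 without the double positive cells and 0.77 without the 1% of cells with the most UMIs. In subcluster 3 it stood at 1158 and 2699 CPM, but 1 cell of the library labelled KO held 765 of its 870 UMIs, and without the double positive cells the order was reversed, at 1458 and 309 CPM. cDC1-like cells were low, at 122 and 112 CPM. Over all DCs the level was 1111 and 1090 CPM, and without the double positive cells 1097 and 829 CPM (log2 ratio -0.40).

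Ccl3 and Ccl4, and likewise Ccl17 and Ccl22, were often detected in the same cells. In cluster 2, 87.9% and 86.4% of cells with a Ccl3 UMI also held Ccl4, against 55.9% and 51.4% of cells without Ccl3 (Spearman's rho of the levels over cells 0.71 and 0.76). In TAM/Mono the shares were 74.2% against 51.8% in the library labelled WT and 55.5% against 35.4% in the library labelled KO (rho 0.40 and 0.29). In mature DC-like cluster 12 all cells with Ccl17, 13 and 9, also held Ccl22, against 35.7% and 72.2% of the cells without Ccl17 (rho 0.75 and 0.37). For Ccl5 and Xcl1 rho was negative in cluster 2 (-0.27 and -0.46), in cluster 6 (-0.35 in both libraries) and in NK cells (-0.19 and -0.31). It was -0.03 and -0.20 in cluster 7 and positive in the naive-like cluster 1 (0.24 and 0.14). Cells of a cluster share a library and differ in depth, and these values carry no test.

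Of the receptors of the members, 7 of 9 were in the table. Ccr1 was highest in TAM/Mono, at 289 CPM in 77.2% of cells labelled WT and 213 CPM in 64.4% of cells labelled KO (log2 ratio -0.44, -0.52 to -0.36). Ccr4, the receptor of Ccl17 and Ccl22, gave only 21 and 8 UMIs in T cells, of which 19 and 7 were in the Treg-like cluster 9 (16.5 and 6.96 CPM, in 10.3% and 3.53% of its cells). Ccr8, a receptor known from tumor regulatory T cells, gave 24 and 14 UMIs in the same cluster. None of these receptors passed the fold in a class where it had 100 UMIs or more. Of all 20 chemokine receptor genes measured, 8 reached 100 UMIs in T cells, 4 in NK cells, 7 in DCs and 8 in TAM/Mono. Past the fold in the library labelled KO, 1 was lower in T cells (Cxcr4, log2 ratio -1.23) and 1 was higher in NK cells (Cxcr6, 1.22). In TAM/Mono 1 was lower (Cxcr4, -1.35) and 1 was higher (Cx3cr1, 1.11), and 0 of 7 passed in DCs. Over all genes the shares were 2.72% in T cells, 1.76% in NK cells, 2.05% in DCs and 2.39% in TAM/Mono. The receptor counts rest on few genes and were not tested.

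Another 22 chemokines were measured. Of 14 in TAM/Mono with at least 100 UMIs, 2 passed the fold and both were lower in the library labelled KO: Cxcl3, which draws neutrophils, at 442 and 56.4 CPM, and Ccl7, which draws monocytes, at 2021 and 977 CPM. The median log2 ratio of the 14 was -0.56, against 0.06 for all genes of the class. Those highest in level, Ccl2 and Ccl6, had log2 ratios of -0.79 and -0.67. Past the fold in the other classes, Ccl1, a ligand of Ccr8, was higher among NK cells labelled KO (176 and 491 CPM, log2 ratio 1.48) and Ccl6 was lower there. In T cells Ccl2, Ccl7 and Ccl6, genes of myeloid cells, were lower (log2 ratios -1.45, -1.07 and -1.14), and 28.5% and 13.6% of T cells were double positive. In DCs Cxcl9 and Ccl7 were lower. Of the cytokine and cytotoxic genes in NK cells, 3 of 7 passed the fold, all lower in the library labelled KO (Gzmb, Gzmc and Prf1). In T cells 2 of 15 passed it, both lower (Il10 and Prf1), while Gzmb, which encodes a granzyme of killer cells, was lower by less than the fold (1172 and 760 CPM, log2 ratio -0.63). In DCs 1 of 3 (Gzmb) and in TAM/Mono 2 of 10 (Gzmb and Gzmc) passed it, also lower. T cell markers summed to 798 and 673 CPM in DCs and to 368 and 232 CPM in TAM/Mono, and double positive cells were 23.6% and 19.4% of DCs and 15.0% and 8.05% of TAM/Mono. The part of these cells in the granzyme values was not tested. Over all genes past the fold, 91 were higher and 141 lower in T cells, 14 and 32 in NK cells, 19 and 93 in DCs, and 59 and 140 in TAM/Mono. They were 2.72% of 8523 genes in T cells, 1.76% of 2608 in NK cells, 2.05% of 5451 in DCs and 2.39% of 8333 in TAM/Mono. The counts of chemokines, cytokines and cytotoxic genes above stand beside these shares and rest on few genes. Of 22 regulators of chemokine genes, such as Nfkb1, Tbx21 and Irf4, those with at least 100 UMIs were 21 in T cells, 13 in NK cells, 16 in DCs and 18 in TAM/Mono, and none passed the fold in any of these classes.

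Over 13 clusters with at least 20 cells in both libraries (26 points), the gene most like Ccl3 in level was Ccl4 (Pearson's r of log2(CPM + 1) 0.94), followed by Txnl1 (0.81) and Cox17 (0.79). For Ccl4 the genes after Ccl3 were Txn1 and Txnl1 (0.84 each). Ccl5 was most like Dapk2, Stat4 and Fasl (0.91 each), of which Fasl encodes a death ligand of killer cells. Xcl1 was most like Cd160, Crtam and Klrc1 (0.91 each), genes of receptors found on NK cells and CD8 T cells. Ccl17 was most like Tspan33, Ccl22 and Mreg (0.89, 0.89 and 0.88), and Ccl22 like Mreg, Ncoa7 and Il12b (0.94, 0.93 and 0.92), of which Il12b encodes a subunit of IL-12. Both libraries of a cluster enter as points and share cell type, library and depth, and these values carry no test.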

How the data were processed

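Single-cell RNA sequencing of sorted CD45.2+ tumor-infiltrating cells was analysed, 1 library per genotype. Per the labels, Cell Ranger and the mm10 build were used. Per the methods, both libraries were aggregated, filtered on cells (a minimum of 300 UMIs and of 100 genes, and a mitochondrial limit of 5%), and normalised in Seurat. The deposited table holds the natural log of 1 plus UMIs scaled to 10000 per cell, as the authors made it, although its name calls it raw counts. UMIs were recovered as expm1(value) over the smallest nonzero expm1 of the cell, and 100% of values came out whole (tolerance 0.01). Libraries were assigned by the barcode suffix that the labels give. Cells were clustered in Seurat 5.3.0 (R 4.3.3) on 570 variable genes, leaving out 29 chemokine and receptor genes, with 13 PCs and resolution 0.8. Clusters were named by the list with the largest share of markers detected (a UMI in 10% or more of cells, with a level over the clusters' mean) and a check of the 10 leading genes, a rule written after clusters were seen. No doublets were removed. Cells with at least 3 UMIs of 3 CD3 genes and at least 5 UMIs of 8 myeloid genes are called double positive. Levels are summed UMIs as CPM with exact Poisson intervals, shares have exact Clopper-Pearson intervals, and log2 ratios (0.5 UMIs added) have exact conditional binomial intervals, all at 95%. PCR and sampling of tumors are not covered by them. No test between genotypes was run. The scripts were tested on simulated counts. Members and lists were chosen with earlier results of these data known. Named genes are the members, their receptors, the highest genes of each other list, and the 3 genes most like each member; genes past the fold, and the cytotoxic genes given, were named after their values were seen. Alternatives covered clustering, classes, double positive cells, weighting and single cells, and Python 3.11.15 was used. Some items are not reported here.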

Additional observations from a re-analysis of the deposited data

Results flagged for a closer look

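For 4 members, the counting intervals of the log2 ratio (library labelled KO to library labelled WT) lay above 0 in at least 1 class and below 0 in another, over classes with at least 100 UMIs of the gene. With 1 library per genotype these differences between classes were not tested. For Ccl3 the ratio was 0.066 in T cells, 0.30 in NK cells, -0.65 in DCs and -0.38 in TAM/Mono. In DCs of the library labelled WT 1 cell held 79 of 208 Ccl3 UMIs, and the ratio there was -0.11 without double positive cells and -0.17 without the 1% of cells with the most UMIs. For Ccl4 the ratio was 0.092 in T cells, -0.75 in DCs and -0.95 in TAM/Mono. The T cell value of Ccl4 kept its direction under 8 of 12 alternatives (-0.12 to 0.61), so the opposite directions depended on the processing. For Ccl5 the ratio was 0.84 in T cells, 0.085 in NK cells and -0.075 in TAM/Mono. For Xcl1 it was 0.38 in T cells, 0.31 in NK cells and -2.68 in DCs, where 1 cell held 83 of 98 UMIs of the library labelled WT.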

How the results depend on the processing

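No paired analysis was possible because there is 1 library per genotype. All values here are log2 ratios, library labelled KO to library labelled WT, and the cause of each change was not tested. Clustering at resolution 0.4 or 1.2 moved none of the 19 ratios beyond its counting interval. Without double positive cells, the ratio was -0.49 for Ccl3, -0.013 for Ccl4, 0.56 for Ccl5 and -0.051 for Xcl1 in T cells, -0.45 for Ccl3 and -1.17 for Ccl4 in TAM/Mono, and -0.17 for Ccl17, 0.034 for Ccl22 and 0.69 for Xcl1 in DCs. In cluster 6 it was then -0.23 for Ccl4 and -2.05 for Xcl1, under an alternative chosen after seeing the data. With classes from gates, it was -0.88 for Ccl3, -0.066 for Ccl4 and 0.49 for Ccl5 in T cells, -0.048 for Ccl3, -0.028 for Ccl5 and 0.044 for Xcl1 in NK cells, 0.34 for Ccl17, 0.51 for Ccl22 and 0.60 for Xcl1 in DCs, and -1.14 for Ccl4, 0.13 for Ccl5 and 0.84 for Ccl17 in TAM/Mono. With every cell counted alike, it was -0.34 for Ccl3, -0.12 for Ccl4 and 0.67 for Ccl5 in T cells, -0.021 for Ccl5 and 0.47 for Xcl1 in NK cells, -0.14 for Ccl22 in DCs and -0.26 for Ccl3 in TAM/Mono. Without the 1% of cells with the most UMIs, it was -0.12 for Ccl3, -0.056 for Ccl4 and 0.70 for Ccl5 in T cells, 0.58 for Xcl1 in NK cells, -1.68 for Ccl17 and 0.40 for Xcl1 in DCs, and -0.47 for Ccl3 and -1.41 for Ccl4 in TAM/Mono. At 1 mix of clusters, it was 0.55 for Ccl3, 0.61 for Ccl4 and 0.73 for Ccl5 in T cells, -0.25 for Ccl17 and -0.020 for Ccl22 in DCs, and -0.084 for Ccl3, -0.63 for Ccl4 and 0.068 for Ccl5 in TAM/Mono. Centred on the median gene, it was 0.13 for Ccl3, 0.16 for Ccl4 and 0.91 for Ccl5 in T cells and -1.01 for Ccl4 in TAM/Mono. With 20 PCs, it was 0.033 for Ccl5 and 0.66 for Xcl1 in NK cells, -0.80 for Ccl17 in DCs and 0.11 for Ccl17 in TAM/Mono. Without depth regression it was 0.63 for Xcl1 in NK cells, and with chemokine genes kept it was 0.027 for Ccl3 in DCs. Depth also limits shares of cells with a UMI. Its median differed most between the libraries in T cells, at 9945 and 4826 UMIs, and NK cells were shallower in both, at 4872 and 3992.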
